A study of Homo sapiens with 54 samples.

Results

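POLR3C occupancy was described as the regions enriched by chromatin immunoprecipitation and sequencing (ChIP-seq) with an antibody against this RNA polymerase III subunit. T47D cells given vehicle were set against T47D cells given the progestin R5020. Members were all rows of both POLR3C peak lists on chromosomes 1 to 22 and X. There were 666 regions in the vehicle list and 693 in the R5020 list, 1359 of the 518471 regions of the 16 lists of the series. A region was counted as present in both treatments when it shared at least 1 bp with a region of the other list.

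T47D is a human breast cancer line that carries the estrogen and progesterone receptors and was kept in medium with serum. The vehicle group received ethanol for 1 h and the R5020 group received R5020, a synthetic agonist of the progesterone receptor (PR), for 1 h, and no genetic change is given for either. Each group has 3 POLR3C libraries, 6 of the 54 libraries of the series, and 1 list stands for the 3 libraries of a group. The other antibodies were against PR, the catalytic subunit POLR3A, the alternative subunits POLR3G and POLR3GL, the initiation factor Brf1, the polymerase III repressor Maf1, and acetylated lysine 27 of histone H3 (H3K27Ac), a mark of active promoters and enhancers.

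Groups were taken from the titles, and in the R5020 group the titles and treatment tags disagree. Replicates 1 and 2 are titled R5020 and tagged as ethanol, and only replicate 3 is tagged as R5020. If the tags were right, 2 of the 3 libraries behind the R5020 list would come from vehicle cells, and the lists do not allow 1 library to be left out. Every difference between treatments below carries this limit. With 1 list per treatment there is also no replicate error. The 95% intervals reflect only how many regions or genes were counted, and neighbouring regions are not independent. The luminal identity of the cells was checked at the acetylation regions: 8 of 8 luminal marker genes, among them ESR1, PGR and KRT8, had H3K27Ac in both treatments. Of 5 basal or mesenchymal markers, KRT5 and KRT14 had none, and TP63, VIM and ZEB1 had it. Of 3 blood and endothelial markers 2 had it in each treatment, CD3E and PTPRC with vehicle and PECAM1 and PTPRC with R5020, so the mark alone does not tell the cell types apart.

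RNA polymerase III makes the tRNAs, the 5S ribosomal RNA and a few other short RNAs such as 7SK, U6 and the vault RNAs. POLR3C, also called RPC62, forms with POLR3F and either POLR3G or POLR3GL a small subcomplex that no other RNA polymerase has, and that takes part in promoter recognition and opening. Brf1 is part of TFIIIB, which recruits the polymerase to tRNA and 5S genes, and Maf1 binds the polymerase and represses it.

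Most POLR3C regions lay away from the genes that polymerase III is known to transcribe. The strongest of them lay near a start or an end of a protein-coding gene. The promoters of PRKCI, an atypical protein kinase C, of EIF3B, a subunit of a translation initiation factor, and of FLCN, folliculin, are shown because each lay inside a strong POLR3C region in both treatments. The sequences are the 250 bases before the annotated start, 5′ to 3′ on the strand of the gene, from RefSeq (GRCh38.p14). Capitals mark the word GTACCA, the similar word GAACCA, which differs from it by 1 base, and the further word AATGGT, each on either strand. They are 3 of the 6-base words most over-represented in promoters with POLR3C, as counted further on. The PRKCI window is chr3:170222174-170222423 (+), the EIF3B window chr7:2354577-2354826 (+) and the FLCN window chr17:17237169-17237418 (-).
PRKCI: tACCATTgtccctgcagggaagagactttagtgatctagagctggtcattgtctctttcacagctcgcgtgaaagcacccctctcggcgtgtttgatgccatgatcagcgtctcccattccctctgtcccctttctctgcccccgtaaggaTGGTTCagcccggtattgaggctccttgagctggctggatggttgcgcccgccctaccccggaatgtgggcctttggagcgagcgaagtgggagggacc
EIF3B: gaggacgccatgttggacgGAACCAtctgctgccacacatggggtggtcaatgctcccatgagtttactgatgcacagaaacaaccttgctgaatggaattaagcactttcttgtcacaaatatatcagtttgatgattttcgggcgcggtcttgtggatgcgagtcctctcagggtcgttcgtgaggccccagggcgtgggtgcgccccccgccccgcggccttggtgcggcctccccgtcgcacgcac
FLCN: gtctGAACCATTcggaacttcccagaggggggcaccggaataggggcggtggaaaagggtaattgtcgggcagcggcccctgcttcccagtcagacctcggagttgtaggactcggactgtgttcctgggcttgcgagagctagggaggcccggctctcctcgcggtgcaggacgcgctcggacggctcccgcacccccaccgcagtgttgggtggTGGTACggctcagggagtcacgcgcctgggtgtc

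The authors' fold enrichment at PRKCI was 7.59 with vehicle and 7.33 with R5020, and its −log10 q of 70.5 and 65.7 was the highest of both lists. At EIF3B the folds were 9.16 and 7.56, and at FLCN 7.50 and 6.99. These 3 promoters hold different numbers of the marked words: PRKCI 2, EIF3B 1 and FLCN 3. GTACCA itself is in the printed bases of FLCN only, and not in those of PRKCI or EIF3B.

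The word GTACCA stood out more than the others at promoters. It is printed here in capitals with 10 bases on either side, 5′ to 3′ on the strand named, from RefSeq (GRCh38.p14). The 8 promoters shown hold it, and of such promoters they overlap the POLR3C regions with the highest vehicle −log10 q. The sites lie near the annotated starts of HHIPL1 (chr14:99604481-99604506, - strand), FLCN (chr17:17237187-17237212, +), TADA3 (chr3:9792998-9793023, -), PFDN4 (chr20:54207891-54207916, +), ZNF300 (chr5:150905013-150905038, +), OGA (chr10:101818581-101818606, +), MRPS24 (chr7:43869510-43869535, +) and CFAP96 (chr4:185426009-185426034, +).
HHIPL1: cggatggaccGTACCAccgccgcagc
FLCN: tccctgagccGTACCAccacccaaca
TADA3: cttccggacgGTACCAtctatgctcc
PFDN4: taattggcatGTACCAagtccttcca
ZNF300: agaatgggctGTACCAcagcggcagc
OGA: gcagtggaatGTACCAtttctgcttg
MRPS24: agcgcgggacGTACCAcagcgcgctg
CFAP96: gtcacggagcGTACCAcaccgcagtc

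A pair of G bases stands 3 bases before the word in 33 of the 44 sites whose flanking bases lie within the promoter window, and 47 sites were found in all.

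The number of POLR3C regions was nearly equal in the 2 treatments. The log2 ratio of R5020 over vehicle was 0.057 (counting interval -0.096 to 0.21). Of the 666 vehicle regions, 423 were also in the R5020 list (63.5%, Wilson interval 59.8 to 67.1), and 243 were found with vehicle alone. Of the 693 R5020 regions, 428 were also in the vehicle list (61.8%, 58.1 to 65.3), and 265 were found with R5020 alone. For POLR3A 83.3% of 688 vehicle regions were present with R5020 (80.3 to 85.9), a larger share than for POLR3C, and 56.3% of 1019 R5020 regions were present with vehicle (53.3 to 59.3). For the alternative subunits POLR3G and POLR3GL, 39.2% of 58423 and 24.1% of 1104 vehicle regions were present with R5020.

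Where a region was present in both lists, its position was nearly the same. The shared regions made 433 overlapping pairs, with a median distance between summits of 43 bp and 341 pairs (78.8%) within 100 bp. The smallest overlap that counted was 43 bp, and the nearest region that did not count lay 78 bp away for vehicle-only regions and 3 bp away for R5020-only regions. Within 1 kb of a region of the other list lay 35 vehicle-only and 45 R5020-only regions.

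Regions found in both treatments stood higher in their own list than regions found in 1. With vehicle the median fold was 4.05 for shared regions and 2.39 for vehicle-only regions. With R5020 it was 4.03 and 2.80. Over whole lists the folds ran from 1.28 to 9.16 with vehicle (median 3.34) and from 1.35 to 8.06 with R5020 (median 3.31). The 10 regions with the highest −log10 q were shared in both lists.

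Whether a region persisted differed by where it lay. For this description each region was put in the first location that fitted it, an order chosen after the data were seen. Of the vehicle regions within 200 bp of a tRNA gene, 80 of 88 were also found with R5020 (90.9%, 83.1 to 95.3). In the 5S ribosomal RNA array it was 26 of 29, and within 1 kb of either end of protein-coding genes 192 of 232 (82.8%, 77.4 to 87.1). Regions over 100 kb from any annotated gene mostly did not recur: 22 of 114 vehicle regions (19.3%, 13.1 to 27.5) and 23 of 97 R5020 regions (23.7%, 16.4 to 33.1). All other locations held 177 vehicle regions, of which 46.9% recurred.

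In the R5020 list genes of these kinds again recurred more often than regions far from genes. The shares also found with vehicle were 76.5% of 102 regions at tRNA genes, 28 of 32 in the 5S array and 80.2% of 248 at ends of protein-coding genes. The interval at tRNA genes, 67.4 to 83.6, meets that of the vehicle list. The regions without a nearby gene made up 17.1% of the vehicle list and 14.0% of the R5020 list. The plot of regions by location shows these shares as the dark parts of the bars.

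**Figure D1:**
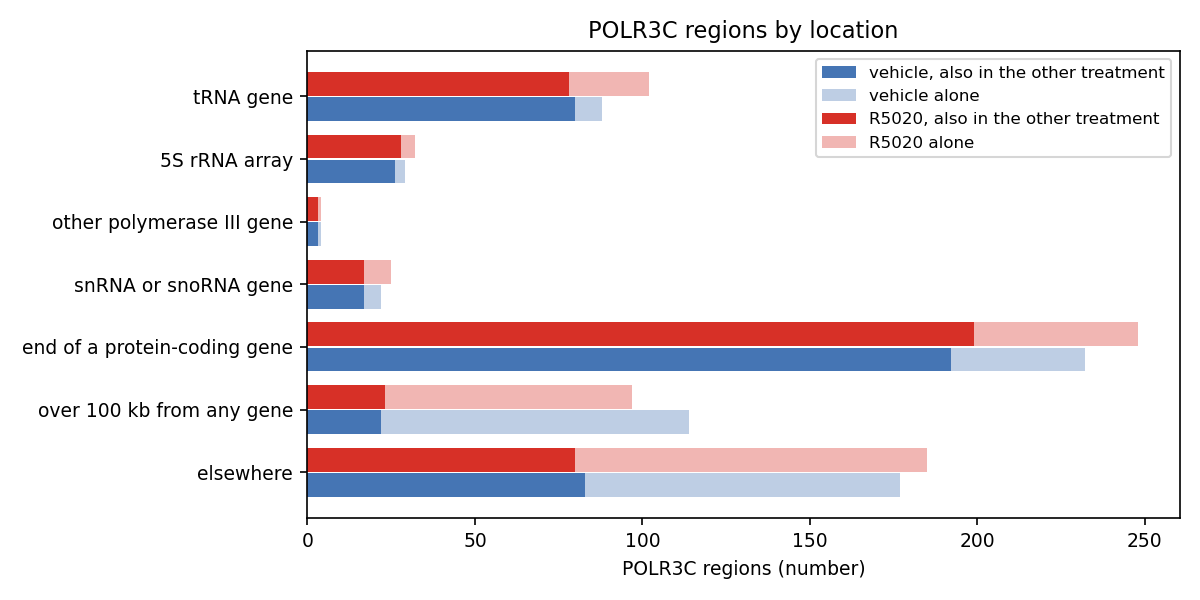
POLR3C regions by location: the x axis is the number of regions and each bar is 1 treatment, with the part also found in the other treatment dark and the part found in that treatment alone light. Ends of protein-coding genes hold the most regions, 232 with vehicle and 248 with R5020, and most of the 114 and 97 regions over 100 kb from any gene are light.

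Of the 10 treatment-specific regions with the highest −log10 q, 5 in each list, 8 were over 100 kb from any gene. The 5 vehicle-only regions with the highest −log10 q all lay over 100 kb from any gene. The first was chr17:25074367-25074557, with a fold of 2.64. The highest fold of the 5 was 6.10, at chr10:40484729-40484938, and no other antibody had a region at any of them with vehicle. Of the 5 R5020-only regions, 3 lay over 100 kb from any gene, and the first was chr7:58181892-58182080 with a fold of 2.23. The other 2 lay close to a chromosome end, at chr22:50807921-50808123 (fold 3.37) and chr18:10058-10303 (fold 4.95).

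POLR3C regions were also concentrated in a few gene arrays. The megabase of chromosome 8 that holds the REXO1L pseudogene array had 49 vehicle and 50 R5020 regions, with median folds of 1.86 and 1.84. The 5S array on chromosome 1 had 29 and 32. The megabase of chromosome 17 with RNU2-1 and a row of unnamed snRNA genes had 18 and 12, and the USP17L genes of chromosome 4 had 9 and 13. Gene-free megabases stood among the richest in the vehicle list. These were chr10 from 40 to 41 Mb (16 with vehicle, 7 with R5020), chr1 from 124 to 125 Mb (12 and 10) and chr1 from 123 to 124 Mb (10 and 1). No region was removed here for lying in repeated sequence. Whether uncertain placement of reads accounts for these counts, or for the treatment-specific regions far from genes, was not tested.

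Over shared pairs the folds of the lists followed each other (Spearman's rho 0.76, Pearson's r 0.78, n = 433 pairs, a description over regions of the same libraries). Within the pairs at tRNA genes rho was 0.14 (n = 80). It was 0.41 in the 5S array (n = 28), 0.63 at ends of protein-coding genes (n = 198), 0.91 at other locations (n = 84) and 0.88 far from genes (n = 23). The spread of folds within each location differs, so these values are not a measure of agreement that can be compared between locations.

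**Figure D2:**
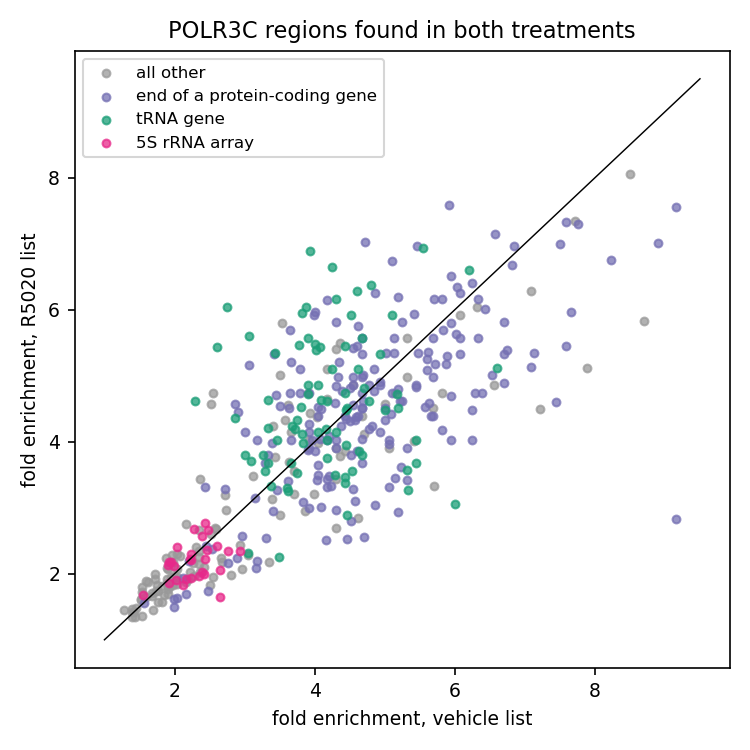
Fold enrichment of the 433 overlapping pairs of POLR3C regions: the x axis is the authors' fold in the vehicle list, the y axis that in the R5020 list, each point is 1 pair coloured by location, and the line marks equal values. The 5S array sits at low folds in both lists, while points at tRNA genes form a cloud with little order.

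The tRNA genes are the main targets of polymerase III, and a minority of them had POLR3C. Of 422 genes, 99 had a POLR3C region within 200 bp with vehicle (23.5%, 19.7 to 27.7) and 117 with R5020 (27.7%, 23.7 to 32.2). Over all 59098 annotated genes the shares were 1.03% with vehicle and 1.1% with R5020. The region was present in both treatments at 89 tRNA genes, with vehicle alone at 10 and with R5020 alone at 28. The corresponding shares of all annotated genes were 0.882%, 0.151% and 0.222%. Nearby tRNA genes can share 1 region, so the genes are not independent and intervals over genes are too narrow. Of the 10 vehicle-only genes 2, and of the 28 R5020-only genes 1, have a region that itself overlaps a region of the other list.

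Every tRNA gene with POLR3C also had POLR3A and Brf1. POLR3C was at 99 of the 360 genes with POLR3A with vehicle (27.5%, 23.1 to 32.3) and at 117 of 359 with R5020 (32.6%, 27.9 to 37.6). Of the 62 and 63 genes without POLR3A it was at 0, which allows a share of up to 5.83% and 5.75%. Brf1 was at 77.0% of the 261 vehicle genes that had POLR3A and no POLR3C, and at 79.3% of the 242 such genes with R5020.

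Acetylation separated tRNA genes with POLR3C from the rest. Among genes with POLR3A, H3K27Ac was at 93.9% of those with POLR3C and 29.5% of those without it with vehicle. With R5020 it was 91.5% and 21.1%. Read the other way, POLR3C was at 54.7% of the 170 vehicle genes with both POLR3A and H3K27Ac (47.2 to 62.0), and at 3.16% of the 190 with POLR3A alone (1.46 to 6.72). With R5020 these shares were 67.7% of 158 and 4.98% of 201. The fold of POLR3A was also higher in its own list at genes with POLR3C, with a median of 46.1 against 34.8 with vehicle and 57.9 against 36.8 with R5020.

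POLR3G followed the same division. It was at 99.0% of vehicle tRNA genes with POLR3A and POLR3C and at 44.8% of those with POLR3A and no POLR3C. With R5020 the shares were 97.4% and 36.4%. POLR3GL was at 0 of the 88 vehicle POLR3C regions at tRNA genes and at 7.84% of the 102 R5020 regions, a difference of 7.84 points (2.18 to 14.7). Over all POLR3C regions the POLR3GL difference was 1.28 points (0.14 to 2.59), and with POLR3GL regions of −log10 q of at least 5 it was -0.018 (-0.93 to 0.87).

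PR and Maf1 were at few tRNA genes with vehicle and at more with R5020, with and without POLR3C. At genes with POLR3C, PR was at 6 of 99 with vehicle (6.06%) and 64 of 117 with R5020 (54.7%), and Maf1 at 10 of 99 (10.1%) and 70 of 117 (59.8%). At genes with POLR3A and no POLR3C, PR was at 1.15% and 17.8%, and Maf1 at 1.53% and 9.92%. The PR list grew from 6662 to 173115 regions and the Maf1 list from 3048 to 22638. With equal numbers of top PR regions by −log10 q, PR was at 6.82% of the vehicle POLR3C regions at tRNA genes and at 3.92% of the R5020 ones. Maf1, treated alike, was at 10.2% and 0.98% of them, so the direction rests on regions that rank lower in the longer lists.

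R5020 PR was found about as often at tRNA genes whose POLR3C region was in both treatments as at those where it was in 1. It was at 49 of the 89 genes with POLR3C in both treatments (55.1%, 44.7 to 65.0), at 6 of the 10 with POLR3C with vehicle alone (60.0%, 31.3 to 83.2) and at 15 of the 28 with POLR3C with R5020 alone. These intervals overlap widely, and with 10 and 28 genes no difference was detectable. POLR3A was present in both treatments at all 10 vehicle-only genes, with a median fold of 59.4 in the R5020 list, against 57.9 at the 89 genes with POLR3C in both.

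The strongest tRNA genes were largely shared. With vehicle the highest −log10 q were at TRG-GCC2-1 (glycine), where the fold was 6.60 with vehicle and 5.11 with R5020, and at TRE-CTC1-1 (glutamate), where it was 6.20 and 6.60. With R5020 they were at TRS-TGA1-1 (serine; fold 4.80 with vehicle, 6.37 with R5020) and TRM-CAT1-1 (elongator methionine; 4.00 and 5.48). TRP-CGG1-1 (proline) ranked high in both, with 5.54 and 6.93. At TRR-TCG1-1 (arginine) the fold was 3.93 with vehicle and 6.88 with R5020. At the lysine genes TRK-TTT3-1 and TRK-TTT3-2 vehicle had separate regions, with folds of 4.08 and 2.60, and R5020 had 1 region over both, with 5.43.

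Some well-enriched tRNA genes had POLR3C in 1 list. TRW-CCA4-1 (tryptophan, chr12:98504252-98504323) and its neighbour TRD-GTC1-1 (aspartate) shared 1 vehicle region with a fold of 6.00, and the R5020 region that overlaps it (3.05) lay within 200 bp of TRD-GTC1-1 only. TRA-TGC3-2 (alanine) had 4.60 and TRR-CCG1-3 (arginine) 4.55 with vehicle alone. With R5020 alone the strongest were TRA-CGC1-1 (alanine, chr6:26553503-26553574), with a fold of 5.30, and TRR-ACG2-1 (arginine), with 4.86. All 5 genes had POLR3A in both treatments. The median fold was 3.68 for the 28 R5020-only genes, against 4.47 in the same list for the 89 shared genes.

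By amino acid, POLR3C was spread over nearly all families. It was at 11 of 30 glycine genes in each treatment, at 8 of 27 lysine genes in each, and at 7 and 6 of 20 proline genes. Low shares were seen for asparagine, with 1 of 21 genes in each treatment although 16 had POLR3A, and for cysteine, with 3 and 4 of 29. The initiator methionine genes, whose tRNA starts translation, had POLR3C at 3 of 8 with vehicle and 5 of 8 with R5020. Neither of the 2 selenocysteine genes had it. Valine went from 7 to 10 of 28 genes and serine from 5 to 8 of 26, changes of 3 genes whose intervals overlap (12.7 to 43.4 and 20.7 to 54.2 for valine).

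**Figure D3:**
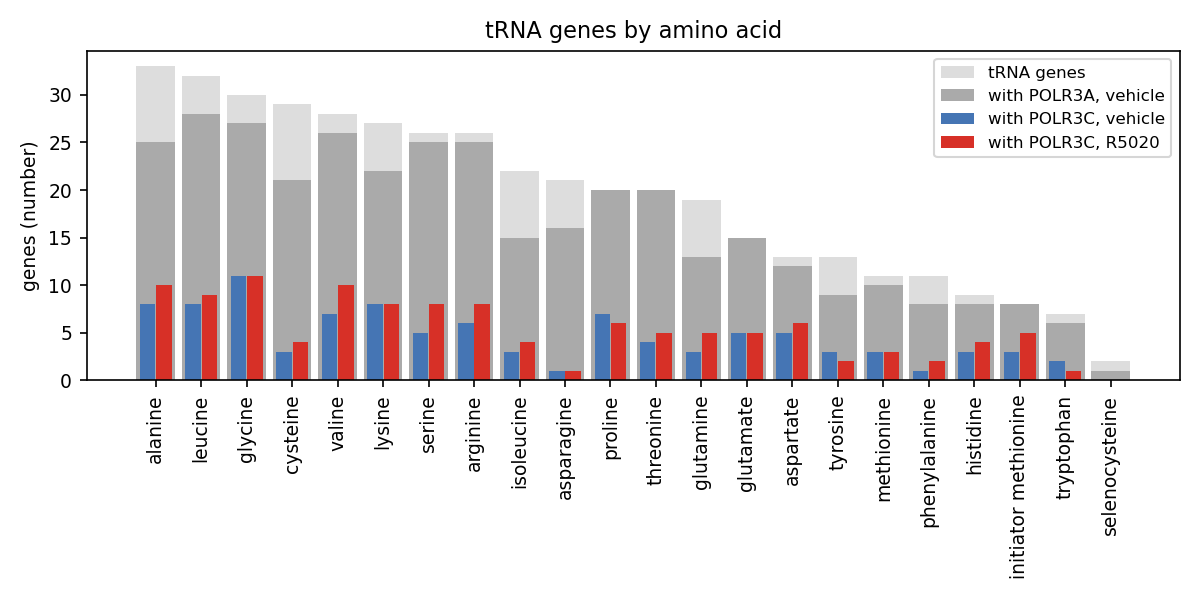
tRNA genes by amino acid: the y axis is the number of genes, light grey bars all genes, dark grey bars those with POLR3A with vehicle, and coloured bars those with POLR3C with vehicle (blue) and with R5020 (red). POLR3C reaches 11 of 30 glycine genes and 1 of 21 asparagine genes in either treatment.

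Among other polymerase III genes, POLR3C was at few. Of a list of 20 such genes, 4 had a region in each treatment, and POLR3A was at 19 of them. RN7SK, the RNA that holds the elongation factor P-TEFb inactive, had a fold of 3.50 with vehicle and 5.01 with R5020. RN7SL1, the RNA of the signal recognition particle, had 3.64 and 3.69, and the vault RNA gene VTRNA1-2 had 3.54 and 5.79. RNY3, a Y RNA gene, had a region with vehicle alone (fold 3.00), and RNU6-2, a U6 spliceosomal RNA gene, with R5020 alone (3.56). Those without POLR3C included RMRP, RPPH1, RN7SL2, RNU6-1 and the other Y RNA genes.

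The 5S genes were covered most completely. POLR3C was at 15 of 17 annotated 5S genes in both treatments, and not at RNA5S15 or RNA5S16 in either. The median fold of the array was 2.24 with vehicle and 2.17 with R5020, below the median of each list. Repeated copies make the placement of reads between these genes uncertain. POLR3A overlapped 20 of the 29 vehicle regions of the array and 30 of the 32 R5020 regions. PR overlapped 7 of 29 with vehicle and 1 of 32 with R5020, the reverse of its order at tRNA genes (-21.0 points, -39.2 to -3.65).

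POLR3C also lay at small nuclear and nucleolar RNA genes that polymerase II transcribes. It was at 17 of 147 snRNA genes outside the polymerase III list with vehicle and 21 with R5020, 14 of them in both, and at 5 and 4 of 1196 snoRNA genes. As shares these are 11.6% and 14.3% of the snRNA genes, above the 1.03% and 1.1% of all annotated genes, and 0.42% and 0.33% of the snoRNA genes, below them. SNORD3A, the U3 RNA of ribosomal RNA processing, had the highest fold, 7.89 with vehicle and 5.11 with R5020. The U1 genes RNU1-1, RNU1-2, RNU1-3 and RNU1-4 and the U2 gene RNU2-2 had POLR3C in both lists, and RNU1-3 had 5.15 and 4.74. RNU4-2 (2.80) and RNU2-1 (2.80) had it with R5020 alone, and RNU5B-1 (2.87) with vehicle alone. Copies of U1 and U2 share sequence, so their reads can be split between copies. Most of the counted snRNA genes lie on chromosome 1, where these U1 genes are, or in the chromosome 17 row with RNU2-1. They are therefore not independent, and the snRNA shares rest largely on these genes.

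These snRNA and snoRNA regions differed from the tRNA regions in the proteins found with them. PR and Maf1 were already present with vehicle, each at 21 of 22 regions (95.5%), and with R5020 at 25 and 24 of 25. POLR3A was at 1 of 22 and 1 of 25. Brf1 was at 3 of 22 with vehicle and 11 of 25 with R5020. Counted by gene, most of those with Brf1 under R5020 lay in the chromosome 17 row of snRNA genes with RNU2-1. The Brf1 list grew from 370 to 1157 regions, and equal numbers of top Brf1 regions were not compared for this location. Every region of this kind had POLR3G in both lists.

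Protein-coding genes made the largest group of POLR3C regions. Of 19974 genes, 336 had a region within 1 kb of either end with vehicle (1.68%) and 350 with R5020 (1.75%). Both treatments shared 293 genes, with 43 in vehicle alone and 57 in R5020 alone. These gene counts include genes beside polymerase III genes, such as BCAR3, whose region is the one at the tRNA gene TRR-TCT1-1. The share of all POLR3C regions at such an end, before tRNA and other genes were set apart, was 40.2% (36.6 to 44.0) with vehicle and 41.8% (38.2 to 45.6) with R5020.

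The strongest regions within 1 kb of either end of protein-coding genes lay at genes of varied functions. PRDM10, a zinc finger transcription factor, had folds of 7.44 with vehicle and 4.61 with R5020. The shared region of ANKRD13A and GIT2, an ARF GTPase-activating protein, had 8.90 and 7.00, and that of CCDC85C and HHIPL1 7.76 and 7.30. LSR, a lipoprotein receptor of tricellular junctions, had 8.22 and 6.76. CDC25C, a phosphatase that drives entry into mitosis and shares its region with FAM53C, had 7.59 and 5.46. The neighbours FRAT1 and FRAT2, which bind the kinase GSK3, had 6.75 and 5.39, and 6.53 and 5.01. EIF3B and FLCN are known from other work as genes that PRDM10 binds and activates.

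FOS and a few others stood as high with R5020 as with vehicle. FOS, an immediate early transcription factor, had 6.57 and 7.15, and CDON, a hedgehog coreceptor, 5.13 and 5.34. The shared region of ANKMY2 and BZW2 had 6.03 and 6.34. That of TADA3 and ARPC4, coding for an acetyltransferase adaptor and an actin nucleator subunit, had 6.82 and 6.68. GALNT10 (7.66 and 5.97), DLST (7.13 and 5.35) and LANCL2 (6.70 and 4.90) had the lower value with R5020. The folds of separate lists depend on each list's background, and such differences were not tested.

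Strong regions away from ends of protein-coding genes were few. One lay inside PMVK, a mevalonate pathway kinase gene, with a fold of 8.70 with vehicle and 5.83 with R5020. Another, chrX:48021067-48021997, lay 11334 bp from SPACA5 with 8.50 and 8.06, the highest fold of the R5020 list. By contrast, EEF1D and EED had their regions at an end of the gene. With R5020, EEF1D (7.03), a subunit of the translation elongation factor eEF1, and EED (6.96), a Polycomb subunit, were among the top 10 by −log10 q.

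The lists of genes named for this tissue and pathway are short, so each share rests on few genes. Over all protein-coding genes, 1.93% had a POLR3C region within 1 kb of the gene with vehicle and 2.01% with R5020. Of 36 genes of the polymerase III machinery, POLR2L (fold 3.67 and 4.03) and POLR3E (4.18 and 4.62) had one in both treatments, or 5.56%. POLR3A was also at POLR3E in both treatments. None of 15 progestin-responsive genes and none of 17 aminoacyl-tRNA synthetase genes had one, and lists this short can hold none at the background share. Of 10 luminal genes only GATA3 did (3.00 and 3.35), or 10% in each treatment. Of 10 growth regulators FOS had one in both treatments and IER3 with R5020 alone (3.72), or 10% with vehicle and 20% with R5020.

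Ribosomal protein and histone genes had regions at a few members. Of 86 cytosolic ribosomal protein genes, 6 had POLR3C with vehicle (6.98%) and 4 with R5020 (4.65%). Those in both were RPL19 (5.58 and 4.53), RPL7L1 (4.62 and 5.76) and RPS29, whose region is the one at RN7SL1. Of 69 replication-dependent histone genes, 5 and 4 had it (7.25% and 5.80%), with H4C8 alone in both (4.18 and 3.76). POLR3A was also at H4C8 in both treatments, and at none of the other histone genes with POLR3C. Some of these genes share a region: H2BC21, H2AC20 and H2AC21 have the same one with vehicle, and H4C15 and H2AC19 with R5020. These counts are small, and the members were chosen with earlier results known.

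At ends of protein-coding genes the POLR3C antibody enriched regions with little POLR3A. Whether it bound POLR3C itself there was not tested. POLR3A overlapped 4 of the 232 vehicle regions (1.72%) and 6 of the 248 R5020 regions (2.42%), and Brf1 2 and 9. H3K27Ac overlapped 86.6% and 87.5%, and POLR3G 78.0% and 72.6%. POLR3G is frequent at acetylated ends in general: it was at 58.3% of the 17504 acetylated regions at gene ends without POLR3C with vehicle and at 46.3% of 19699 with R5020. POLR3C itself was at 249 of all 17753 acetylated regions at gene ends with vehicle (1.40%) and 266 of 19965 with R5020 (1.33%).

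PR and Maf1 were found at more of these regions with R5020. PR overlapped 28.0% with vehicle (22.6 to 34.1) and 71.0% with R5020, a difference of 43.0 points (34.4 to 50.5). Maf1 overlapped 18.1% and 63.7%, a difference of 45.6 points (37.4 to 52.8). Acetylated regions at gene ends without POLR3C moved in the same direction. PR was at 14.1% of them with vehicle and 56.3% with R5020, and Maf1 at 8.89% and 34.7%. With equal numbers of top regions the direction turned here too, with PR at 28.0% and 4.84% and Maf1 at 18.1% and 6.85%.

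**Figure D4:**
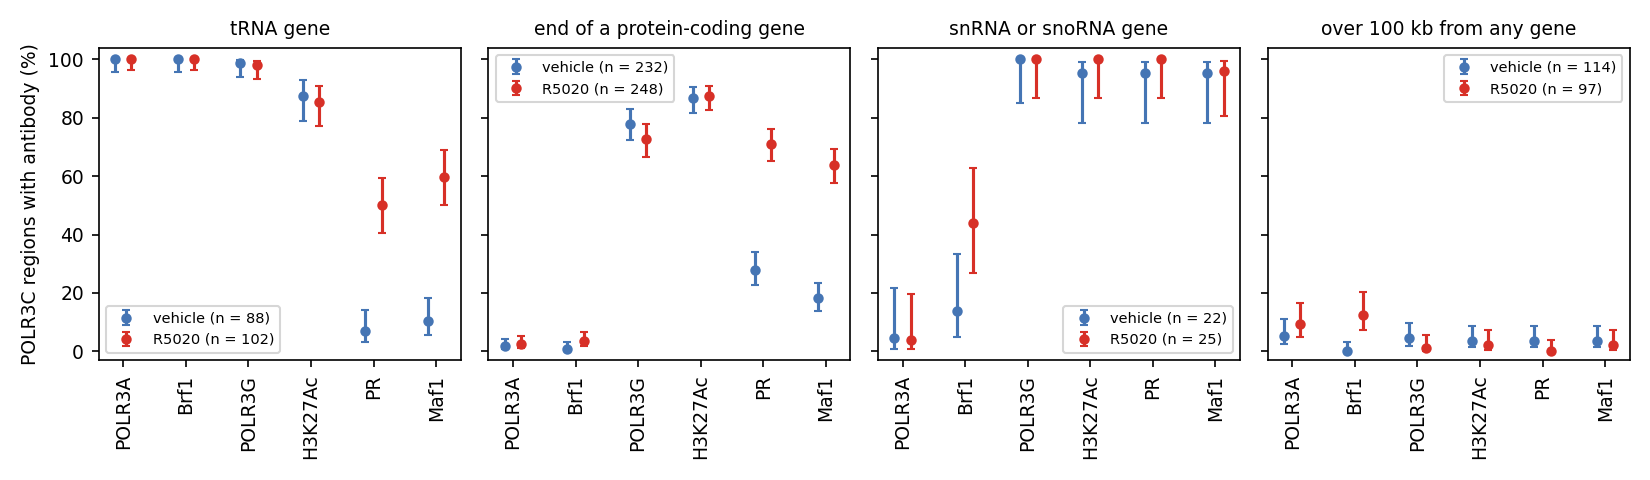
Share of POLR3C regions that overlap each other antibody, by location: the y axis is the share in percent, points are vehicle (blue) or R5020 (red), and bars are 95% Wilson intervals over regions. POLR3A and Brf1 are at 100% at tRNA genes and under 5% at ends of protein-coding genes, where PR is at 28.0% and 71.0%. Regions at tRNA and other small RNA genes were set apart before ends of protein-coding genes were counted.

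Over all POLR3C regions, PR overlapped 19.1% with vehicle and 44.6% with R5020 (25.5 points, 20.7 to 30.2), and Maf1 16.2% and 48.3% (32.1 points, 27.4 to 36.7). With equal numbers of top PR regions the PR difference was -15.0 points, and the same step for Maf1 gave -8.71. POLR3A overlapped 18.8% and 24.0% (5.19 points, 0.82 to 9.51) and Brf1 17.3% and 25.4% (8.13 points, 3.78 to 12.4). With equal numbers of top regions these differences were 2.15 (-2.10 to 6.38) and 2.36 points (-1.78 to 6.47), and with POLR3A regions of −log10 q of at least 5 the POLR3A difference was 3.77 (-0.48 to 8.00). These intervals include 0. For H3K27Ac (60.7% and 63.9%) and POLR3G (62.6% and 59.7%) the intervals of the difference, -1.88 to 8.39 and -8.03 to 2.31, include 0. Most POLR3C regions thus had no POLR3A region in either treatment.

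The same change was seen at POLR3C regions that were themselves in both treatments. Of the 423 vehicle regions of this kind, 86 had PR in both treatments, 149 with R5020 alone, 14 with vehicle alone and 174 in neither. For Maf1 the numbers were 74, 179, 1 and 169. H3K27Ac differed between treatments at few: 333 had it in both, 5 with vehicle alone and 5 with R5020 alone. All 80 shared vehicle regions at tRNA genes had POLR3A and Brf1 in both treatments.

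Regions present in both treatments overlapped H3K27Ac, POLR3A and PR more often than regions present in 1. With vehicle, H3K27Ac was at 79.9% of shared and 27.2% of vehicle-only regions (52.7 points, 45.6 to 59.0), POLR3A at 26.2% and 5.76% (20.5 points, 15.1 to 25.4) and PR at 23.6% and 11.1% (12.5 points, 6.58 to 18.0). With R5020 the shares at shared and R5020-only regions were 80.1% and 37.7% for H3K27Ac (42.4 points, 35.2 to 49.0), 29.4% and 15.1% for POLR3A (14.3 points, 8.01 to 20.2) and 56.1% and 26.0% for PR (30.0 points, 22.7 to 36.8). When the POLR3C and partner regions each had to share 50% of their length, the H3K27Ac differences were 4.16 points with vehicle and 5.01 with R5020, those of POLR3A 4.91 and 7.21, and those of PR 5.11 and 16.4. Maf1 with vehicle was at 17.7% of shared and 13.6% of vehicle-only regions (4.15 points, -1.76 to 9.57), an interval that includes 0. Vehicle PR was at 11.1% of vehicle-only regions and R5020 PR at 26.0% of R5020-only regions (14.9 points, 8.21 to 21.5). The R5020 PR list is much longer, and R5020 PR at vehicle-only regions was not counted over all locations. Within the R5020 list, PR was at a smaller share of R5020-only than of shared regions. The location moves with this result: the regions far from genes, mostly found in 1 treatment, had H3K27Ac at 3.51% of 114 with vehicle and 2.06% of 97 with R5020, and the part of location in the differences was not tested. Within ends of protein-coding genes PR under R5020 was at 73.9% of 199 shared and 59.2% of 49 R5020-only regions, and at tRNA genes at 39 of 78 and 12 of 24.

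The word shown above was counted over RefSeq promoter windows of protein-coding genes, 250 bases before to 50 after the start, for 22132 windows of 15812 genes. Both strands were searched. The word and its longer form were picked from the same windows after their counts were seen, so the shares are a description. GTACCA was in 46 of the 217 windows with POLR3C in both treatments (21.2%, 16.3 to 27.1), against 4.30% of all windows and 3.31% of the 12972 windows with H3K27Ac in both treatments and no POLR3C. The longer GGNNNGTACCA was in 16.1% of the 217, against 0.610% of all and 0.409% of the acetylated ones. Windows of 1 gene can overlap: the counts are of windows, not genes.

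Windows with POLR3C in 1 treatment held GTACCA in 8 of 57 (vehicle alone, 14.0%) and 4 of 35 (R5020 alone, 11.4%). Windows that had other antibodies in both treatments and no POLR3C had it less often than all windows for PR (2.49%, 1.88 to 3.29) and POLR3G (3.60%, 3.16 to 4.10), and at 3.00% for Maf1 (2.18 to 4.13). For POLR3A it was in 0 of 19 windows and for Brf1 in 1 of 19. The letters GTTCGANNC, which belong to the internal B box of tRNA genes, were in 3.23% of the 217 windows and 0.917% of all windows. At least 1 of the 3 words marked in the promoters above was in 102 of the 217 and in 19.2% of all windows. Taken singly, GAACCA was in 22.6% of the 217 and 10.7% of all windows, and AATGGT in 19.8% and 6.41%. Among 380 words of 6 bases found in at least 40 of the 217 windows, CGTACC, which overlaps GTACCA, had the highest ratio of shares (19.4% against 3.32%, 5.83 times), and GTACCA came next.

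The distance from the word to the POLR3C summit was measured in promoter windows that hold the word and overlap POLR3C in both treatments. The strongest region over each window was used, and the word need not lie inside that region. No other position or word was measured for comparison. The sizes of the windows and of the regions limit how long these distances can be. Regions at gene ends have median widths of 374 bp with vehicle and 388 bp with R5020. In the 39 vehicle regions that overlap such a window, the median distance to the summit was 90 bp, with 22 within 100 bp and 34 within 200 bp. In the 39 R5020 regions the median was 78 bp, with 26 and 36. The longest distances were 458 and 449 bp, at PQBP1. Regions at promoter windows that held the word had median folds of 4.85 with vehicle (n = 45) and 4.86 with R5020 (n = 43). Those without it had 4.53 (n = 142) and 4.53 (n = 141). At OGA, the enzyme that removes O-linked N-acetylglucosamine, the word was 47 bp from the vehicle summit and 8 bp from the R5020 summit, and at MRPS24, a mitochondrial ribosomal protein, 38 and 61 bp.

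**Figure D5:**
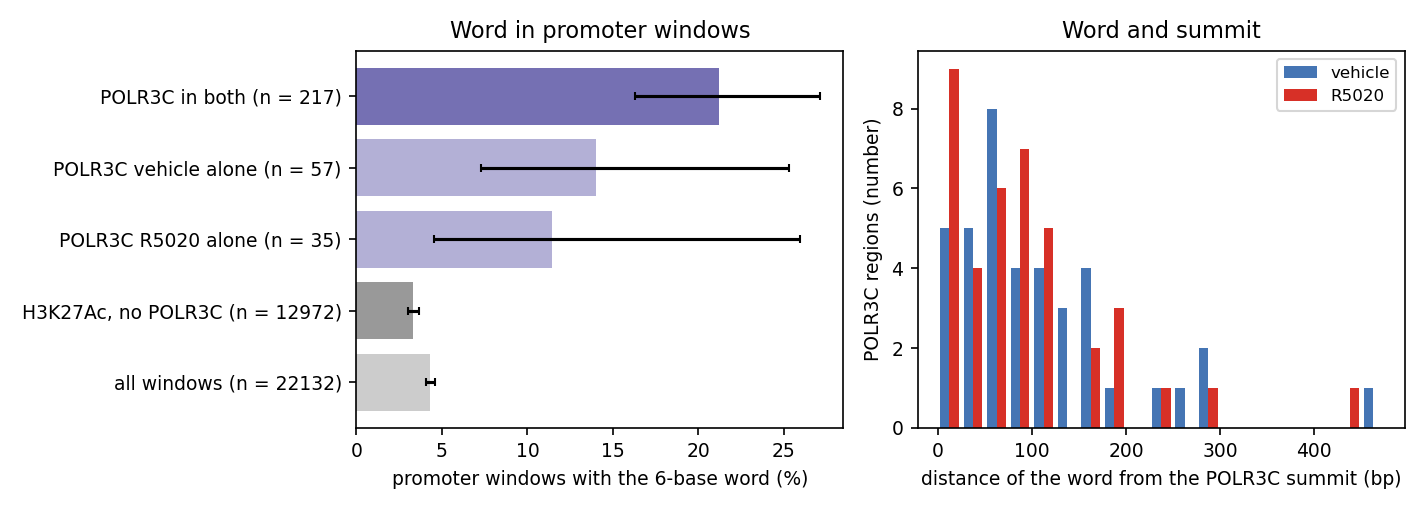
The 6-base word in promoter windows. On the left the x axis is the share of windows that hold it in percent, with 95% Wilson intervals, for windows with POLR3C in both treatments (21.2%), in 1, with H3K27Ac and no POLR3C (3.31%), and all (4.30%); on the right the x axis is the distance in bp from the word to the POLR3C summit and the y axis the number of regions, with most regions within 200 bp in both treatments.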

How the data were processed

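POLR3C ChIP-seq was analysed from 2 peak lists, 1 for each treatment. Reads were trimmed with cutadapt, aligned with Bowtie2 to hg38 and passed to MACS2, per the submitters' processing notes. Their settings, the control libraries and how replicates were combined are not given in the sources used here. The series has 6 input libraries. For each region the deposited table gives the fold enrichment, a ratio over the caller's background, and a −log10 q value, whose minimum was 1.31 in both lists. These are the authors' values and were used to describe, rank and filter within a list. The lists hold no read counts, so depth is unknown, and 0 sample columns were left unmapped.

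Rows on chromosomes 1 to 22 and X were kept, and no row was removed for lying in repeated sequence. Regions shared sequence from 1 bp. Genes, 422 tRNA genes and promoter windows came from RefSeq tables of GRCh38.p14, and tRNA and small RNA genes were matched within 200 bp. Locations were assigned in the order tRNA, 5S array, other polymerase III, snRNA or snoRNA, end of a protein-coding gene (1 kb), over 100 kb from any gene, elsewhere. Shares have 95% Wilson intervals, differences Newcombe intervals and ratios counting intervals, and no p-value was computed. The named genes are the top 10 regions of both lists by −log10 q, the 5 strongest found in 1 treatment, fixed gene lists, the 10 strongest tRNA genes in each list and the 20 strongest protein-coding genes found in both. Beyond these, the tRNA genes in 1 treatment and the snRNA genes named were chosen after their values were seen. The members, lists and tests were chosen with earlier results of these data known. Overlap, distance and word searches were tested on simulated data. Python 3.11.15, numpy 2.4.6, scipy 1.17.1, pandas 2.3.3 and matplotlib 3.10.9 were used.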

Additional observations from a re-analysis of the deposited data

Results flagged for a closer look

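Some POLR3C rows lay outside the chromosomes analysed. On unplaced or unlocalized scaffolds there were 33 rows in the vehicle list and 23 in the R5020 list, with median folds of 1.73 and 1.72. A single scaffold held 12 and 16 of them. They were noticed because they lie in data that no comparison above uses. Of the 706 and 722 deposited POLR3C rows, 40 and 29 were not used, which includes some rows not on these scaffolds. Over the 16 lists of the series, 518471 of 520465 deposited rows lay on the chromosomes analysed. No antibody control list was analysed.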

How the results depend on the processing

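Of 71 alternative values, 33 stayed within the interval of the value they replace, 35 moved out of it and 3 changed sign from a value whose interval excludes 0. The log2 ratio of region numbers stayed within its interval under all 5 alternatives tried, from -0.050 with −log10 q of at least 5 to 0.13 with a fold of at least 3. Its sign, and that of the H3K27Ac difference between treatments (-0.26 points with 50% sharing), turned under these settings, but the intervals of both include 0.

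When the overlap had to cover 50% of each region, 53.0% of vehicle and 50.9% of R5020 regions were found in both treatments. Within 1 kb the shares were 68.8% and 68.3%. With −log10 q of at least 5 in the list scored they were 74.5% and 75.3%, and with a fold of at least 3 in it 81.9% and 73.2%. For these filters the other list was left whole. Without regions over 100 kb from any gene in either list, an alternative added after the data were seen, the shares were 72.6% and 68.0%. Equal numbers of top regions and leaving out chromosomes 1 and 8 kept both within their intervals.

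With equal numbers of top partner regions the differences between treatments were -15.0 points for PR, -8.71 for Maf1 and 2.36 for Brf1. With 50% of the POLR3C and the partner region shared they were 6.00 for PR, 17.4 for Maf1 and 2.14 for Brf1. With −log10 q of at least 5 for POLR3C they were 31.9 for PR and 39.6 for Maf1. Maf1 regions of at least that value gave 23.2, and POLR3GL regions of at least that value -0.018 points against 1.28.

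The share of tRNA genes with POLR3C within 1 kb was 29.4% with vehicle and 32.7% with R5020, and with −log10 q of at least 5 it was 23.0% with R5020. The share of regions at an end of a protein-coding gene was 47.3% and 49.2% within 5 kb, 33.5% and 33.9% within 1 kb of a start, and 47.5% and 48.9% with −log10 q of at least 5. Shared minus treatment-only regions with 50% sharing gave 5.11 and 16.4 points for PR, 4.91 and 7.21 for POLR3A and 4.16 and 5.01 for H3K27Ac, with vehicle and R5020. With −log10 q of at least 5 for POLR3C in the list scored alone they gave 60.7 for H3K27Ac with vehicle. With R5020 they gave 38.1 for PR and 7.14 for POLR3A (-2.59 to 15.6, which includes 0). The cause was not tested.

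No paired analysis was possible because the lists carry no replicate. For the same reason no library was left out, including those with conflicting tags. Depth is unknown.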
